A study of Homo sapiens with 6 samples.

Results

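The cytosolic ribosome of human cells is built from ribosomal RNA and many small proteins, and the genes described here are those that encode the proteins. They were taken from the deposited table by symbol: RPL or RPS followed by a number, with an optional A, L or X, together with RPSA, RPLP0, RPLP1 and RPLP2. Rows of the same symbol were summed. The rule found 84 of the 29982 gene symbols, in 99 rows, of which 15 lay on alternate contigs and were at 0. Of the 84 genes, 82 had a mean FPKM (fragments per kilobase of transcript, scaled to the mapped total, so that levels are per length) of at least 1 over the 6 libraries and entered the comparisons, 50 of the large subunit and 32 of the small subunit. RPL10L was listed at 0 in all 6 libraries and RPL3L reached at most 0.0590 FPKM. Of the 82 genes, 77 are core genes and 5 are paralogs of a core gene, RPL7L1, RPL22L1, RPL26L1, RPL39L and RPS27L.

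RNA of OVCAR5, an established ovarian cancer cell line, was measured in 6 libraries: 2 after DMSO, the solvent, 2 after 2 h with SpiD7 at 10 μM, and 1 each after 6 h and 12 h. SpiD7 is a spirocyclic dimer that binds cysteines covalently, and the series asked whether it induces the unfolded protein response. The labels give no duration for DMSO and do not say whether libraries of a group came from separate cultures. The p-values therefore measure at most the spread between these samples, which may be technical. For each gene the test (limma) also draws this spread towards that of all genes tested. The columns named for the second DMSO and 2 h samples were read as the authors' means of a group, and the second library of each was recovered by subtracting the first. All values of a recovered library rest on that reading, which comes from the values alone, and on the second library having the same share of the mean as the first. Had it the complementary share, every level of the recovered DMSO library would be 0.15 higher on the log2 scale and every level of the recovered 2 h library 0.05 higher. Results that turn on this are given with it.

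The large subunit forms peptide bonds and the small subunit decodes the mRNA, and cells make their proteins in nearly equal numbers. Messages of vertebrate ribosomal protein genes start with a C followed by a run of pyrimidines, the terminal oligopyrimidine (TOP) tract, through which growth signalling by mTORC1 sets how well they are translated. The unfolded protein response lowers translation through phosphorylation of eIF2α by PERK. RNA-Seq of total RNA measures the amount of a message and not its translation.

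The start of each gene was looked up in RefSeq (GRCh38.p14, windows from 250 bases before to 50 bases after the start), which matched 67 of the 84 members. The windows below run from 15 bases before to 15 bases after the annotated start, on the gene's strand and 5′ to 3′. They are shown for 4 of the 5 members that were highest at 12 h, for members among the lowest at 12 h (RPL7A, RPL3, RPL22L1, RPL7L1) or 2 h (RPS16), and for RPL22 beside its paralog RPL22L1. Within 10 bases of the start and on the gene's strand, capitals mark each CTTTC, and in the same way each CTTTT and each CTCTT. Hits may overlap each other, and the letters were chosen after start sequences had been seen.

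RPL36 (chr19:5690280-5690309, plus strand): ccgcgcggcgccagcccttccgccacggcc
RPLP1 (chr15:69452803-69452832, plus strand): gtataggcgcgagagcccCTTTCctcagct
RPLP2 (chr11:809952-809981, plus strand): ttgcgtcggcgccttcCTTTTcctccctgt
RPL35 (chr9:124861943-124861972, minus strand): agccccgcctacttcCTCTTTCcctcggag
RPL7A (chr9:133348203-133348232, plus strand): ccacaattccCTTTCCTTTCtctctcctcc
RPL3 (chr22:39319609-39319638, minus strand): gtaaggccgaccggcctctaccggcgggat
RPS16 (chr19:39435935-39435964, minus strand): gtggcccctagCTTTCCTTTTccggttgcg
RPL22 (chr1:6199581-6199610, minus strand): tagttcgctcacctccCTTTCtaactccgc
RPL22L1 (chr3:170870181-170870210, minus strand): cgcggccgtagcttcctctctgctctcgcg
RPL7L1 (chr6:42879601-42879630, plus strand): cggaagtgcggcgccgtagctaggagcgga

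One of these letter runs lay within 10 bases of the start in 44 of the 62 core genes with a window (71.0%) and in 0 of 5 paralogs. Over all promoter windows 9.53% of 27305 genes held one. On the opposite strand the share was 3.23% of the core genes against 6.33% of all genes. A C was the first transcribed base in 79.0% of the core genes, 1 of 5 paralogs and 18.0% of all genes. The window of the paralog RPL22L1 holds a run of pyrimidines across its start that the chosen letters do not mark. CCGGAAG, the core of a site for ETS factors, stood on either strand of the window from 250 bases before to 50 after the start in 35.5% of the core genes and 12.2% of all genes. Core genes with and without the letters had close medians: the median log2 fold change at 12 h was 0.25 for the 44 genes with them, 0.23 for the 18 without and 0.21 for the 15 with no window. At 2 h the medians were -0.08, -0.07 and -0.08.

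Ribosomal protein messages were among the most abundant in every library. Together they accounted for 13.9% (first library) and 9.81% (recovered library) of all FPKM in DMSO, 13.1% and 11.3% at 2 h, and the 6 h and 12 h libraries had 12.5% and 12.3%. The share of a single row, MIR6723, was 9.19%, 25.0%, 8.65% and 21.8% in the first 4 libraries in the same order, and 5.04% at 6 h and 6.93% at 12 h. It moved in the other direction between the first and the recovered library of each group. From the first DMSO library to the first 2 h library both shares fell. Without rows of small RNAs the share of the ribosomal protein genes was 16.1% and 13.5% in DMSO, 14.8% and 15.1% at 2 h, and the 6 h and 12 h libraries had 13.5% and 13.7%. On this base the 12 h library lay between the DMSO libraries and the 6 h library just below both. Shares also move with every other abundant gene, and depth is unknown, because the table holds no counts.

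**Figure D1:**
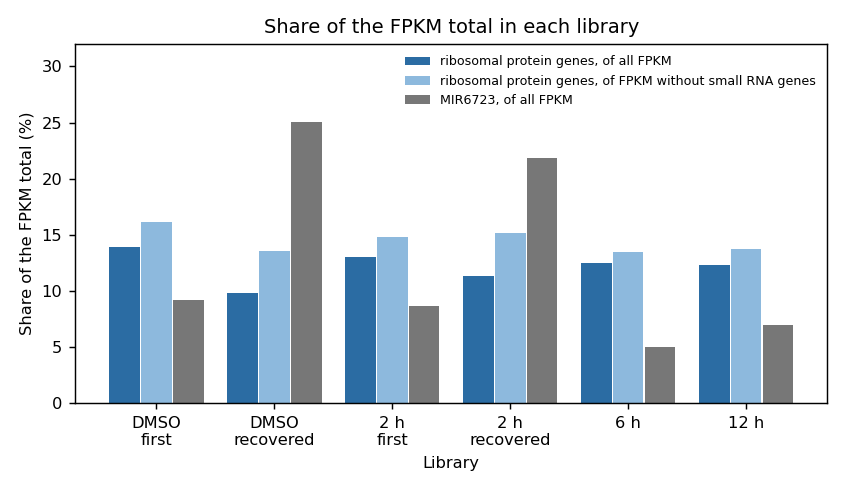
Share of the FPKM total (%) in each of the 6 libraries for the ribosomal protein genes, for the same genes after small RNA rows are left out of the total, and for MIR6723. The dark bars run from 9.81% to 13.9% and are lowest in the 2 recovered libraries, where the grey bar for MIR6723 reaches 25.0% and 21.8%.

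Of the 84 genes, 54 had a mean level of at least 1000 FPKM. The highest was RPL19, with 3467 and 2942 FPKM in the DMSO libraries, 3303 and 2914 at 2 h, and the 6 h and 12 h libraries had 3583 and 3948. RPL41, which encodes the shortest ribosomal protein, followed with 3494 and 3073 FPKM in DMSO and 3820 at 12 h. RPS2, RPS18 and RPL37A completed the highest 5, with means of 3230, 3187 and 2689 FPKM. RPL19 and RPL41 differed by less than their DMSO libraries did. The 5 lowest of the 82 genes tested were the paralogs, from RPS27L at a mean of 28.6 FPKM to RPL22L1 at 141. Among the core genes, 10 lay under 500 FPKM on average (RPL10, RPL13, RPL15, RPL22, RPL27A, RPL32, RPL36A, RPL37, RPS23 and RPS26). Ribosomal protein genes have many processed pseudogenes of near-identical sequence, and how reads that match several copies were counted is not given in the sources used here, so that low and high levels among the core genes are uncertain to that degree. The table lists 30 symbols of such pseudogenes, 5 of them at 0 in every library and 4 above 10 FPKM on average, led by RPL13AP5 with 59.0 and 109 FPKM in DMSO.

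Some genes carried exactly the values of another symbol, so that their reads cannot be assigned to the ribosomal protein alone (6 of 82). RPL17 shared its values with C18orf32, a readthrough of both and SNORD58B, RPL36A with HNRNPH2 and their readthrough, and RPS10 with NUDT3 and their readthrough. RPL32, RPL28 and RPS3A shared theirs with SNORA7A, MIR6805 and SNORD73A. Many ribosomal protein genes carry small nucleolar RNAs, which guide the modification of ribosomal RNA, in their introns, and 62 rows of small RNAs lay within the loci of 32 members. RPL3, RPL4, RPL7A, RPL13A, RPL17 and RPL23A held 4 rows each. Of the 62 rows, 42 were at 0 in all libraries, 4 had the host's values and 16 had values of their own. Only 1 of the 16 was above 0 in more than 3 libraries, SNORA70 in RPL10. The others came and went between libraries of a group: SNORD32A in RPL13A was listed at 2998 FPKM in the recovered DMSO library and at 0 in all 5 others, and SNORD14A in RPS13 at 1050 FPKM in the same library alone.

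The question at 2 h was whether SpiD7 moved these messages soon after it was added. The median of the 77 core genes was 1417 and 1292 FPKM in the DMSO libraries and 1311 and 1247 at 2 h. The first 2 h library thus lay between the DMSO libraries and the recovered one below both. With the complementary share both 2 h medians would lie below both DMSO medians. No member passed the test of 2 h against DMSO (limma on log2(FPKM + 0.1), 2 against 2 libraries, Benjamini-Hochberg adjustment over 13287 genes): 0 of 82 passed an adjusted p of 0.05, where 3 of all genes passed (0.0226%). Without adjustment 0 members had a p under 0.05, the lowest being 0.413 for RPL28, where 0.324% of all genes were lower and 2.52% higher at that threshold, and every adjusted p of a member was 1.0. The test draws the variance of each gene towards that of all genes. RPS2 thus had an SE of 0.15, although its libraries differed by 0.02 in DMSO and 0.03 at 2 h (log2). Shifts of a few percent could therefore hardly pass, whatever the spread of the member itself. The log2 fold changes of the members were small and narrow, with a median of -0.08 (5.09% lower). Their range was -0.16 to 0.02 and their SD across genes 0.03. A value below 0 was found for 80 of 82 members. The median of all genes tested was -0.01, and among 901 genes at 100 FPKM or more that are no member it was -0.05, with 611 below 0. These 901 were picked by their mean over the 6 libraries. They include rows of small RNAs such as SNORD32A, which was above 0 in 1 library alone, and are not abundant mRNAs only. Their log2 fold changes at 2 h ran from -17.3 to 14.0. The median of the members moved to -0.01 without the first DMSO library or without the recovered 2 h library. It moved to -0.15 when the recovered DMSO library was dropped and to -0.14 when the first 2 h library was. Its size thus rests on which libraries are compared. With the complementary share it was -0.12.

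Both 2 h libraries lay below both DMSO libraries for 14 members (8.10% of all genes did so, against 17.1% of the members) and above both for 0 (13.7% of all genes). They included RPL7A, RPL22, RPL23, RPL28, RPL29, RPL30, RPL34, RPL35A, RPS2, RPS6, RPS14, RPS16 and RPS20. Under median-ratio and upper-quartile scaling the count was 33 and 22, and with the complementary share 35. RPS16, a protein of the small subunit, had 1787 and 1747 FPKM in DMSO and 1650 and 1572 at 2 h. The groups did not overlap, and its log2 fold change was -0.13 (SE 0.15, unadjusted p = 0.442 by limma). RPL23 had 2563 and 2633 FPKM in DMSO and 2331 and 2406 at 2 h, also without overlap, with a log2 fold change of -0.13 (SE 0.15). RPL28 had 1017 and 1024 FPKM in DMSO and 982 and 852 at 2 h, the lowest fold change of all members (-0.16, SE 0.17), on values that it shares with MIR6805. RPS29 and RPS26, the next lowest with RPS16 and RPL23, had overlapping groups: RPS26 was at 359 and 211 FPKM in DMSO and at 329 and 193 at 2 h. The only members above 0 were RPS9 and RPL5. RPL5, a protein of the 5S particle that also binds MDM2, had 890 and 885 FPKM in DMSO and 902 and 882 at 2 h, and RPL10A, RPL14 and RPL39L had log2 fold changes between -0.03 and -0.02.

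At 6 h and 12 h there was 1 library each, and the values below have no replicate check. At 6 h the members had a median log2 fold change over the DMSO mean of 0.14 (10.3% higher), against 0.03 for all genes and 0.16 for the 901 other genes at 100 FPKM or more. The 6 h library was above both DMSO libraries for 53 of 82 members, where 31.6% of all genes and 45.1% of the other abundant genes were, and below both for 2 (RPL28 and RPS16; 29.2% of all genes). Under median-ratio scaling 44 lay above both and under upper-quartile scaling 48. With only the first DMSO library as the base the median came to 0.07, and with only the recovered one to 0.20. With the complementary share of the recovered libraries the median was 0.07, with 40 members above both DMSO libraries and 7 below. The highest members at 6 h were RPL22L1, RPS26, RPLP2, RPL36 and RPLP1 (0.59 to 0.39), and the lowest were RPL28 (-0.22), RPS16, RPL13A, RPL3 and RPS3 (-0.04). RPL28 had 874 FPKM at 6 h and RPS16 had 1696. The abundant genes that are no member thus had a median as high as that of the ribosomal protein genes at this time.

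At 12 h the median of the members was 0.23 (16.9% higher), against -0.05 for all genes and 0.06 for the other abundant genes. The library was above both DMSO libraries for 73 of 82 members, where 30.1% of all genes and 36.3% of the other abundant genes were. The remaining 9 were RPL3, RPL7A, RPL22L1, RPL23A, RPL26L1, RPL39L, RPL7L1, RPS26 and RPS29, and of these only RPL7A lay below both (35.6% of all genes did). Under the 2 other scalings the median was 0.26 and 0.28, and 73 and 74 members were above both. With the first DMSO library as the base it was 0.16, and with the recovered one 0.29. With the complementary share the median was 0.15, with 59 members above both and 2 below, where all genes had a median of -0.13. A rise at 12 h was not particular to the members. Of the 30 pseudogene symbols, 15 were tested, 4 of them above 10 FPKM on average. Their median was 0.39 at 12 h, with 11 above both DMSO libraries and 1 below, and 0.08 at 2 h. The changes were small for single genes: 0 of 82 members passed 1.5-fold at 12 h, 1 at 6 h (RPL22L1) and 0 at 2 h, where 26.5%, 20.4% and 7.38% of all genes did. In the plot of the change of each gene, most members lie in a narrow band below 0 at 2 h and above 0 at 12 h.

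**Figure D2:**
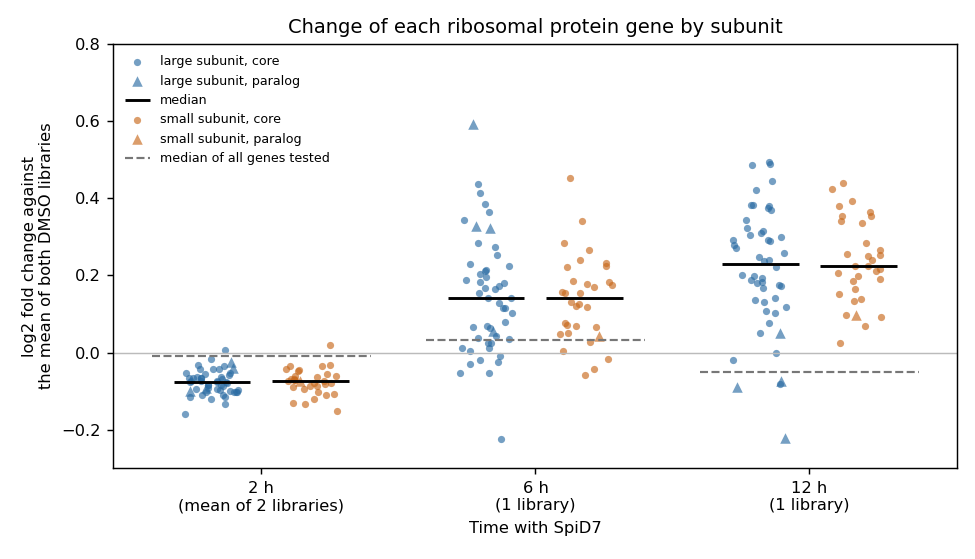
Log2 fold change (base: mean of both DMSO libraries) of each ribosomal protein gene at 2 h, 6 h and 12 h, for the large (50 genes) and the small (32 genes) subunit, with paralogs as triangles, the median of each subunit as a black line and the median of all 13287 genes as a dashed line. Black lines of both subunits stand at the same height at each time, at -0.08 and -0.07 at 2 h, 0.14 and 0.14 at 6 h, and 0.23 and 0.23 at 12 h.

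The 5 highest members at 12 h were RPL35, RPL36, RPLP1, RPLP2 and RPS27. RPL35 had 1733 and 1334 FPKM in DMSO, 1648 and 1257 at 2 h, and the 6 h and 12 h libraries had 1750 and 2141. The 12 h value stood above all 5 other libraries, with a log2 fold change of 0.49 against the DMSO mean, 0.30 when set on the first and 0.68 on the recovered library. RPS27 had 2383 and 2135 FPKM in DMSO, 2330 and 2006 at 2 h, and the 6 h and 12 h libraries had 2552 and 3059, again highest at 12 h, with a log2 fold change of 0.44. RPL36 had 1511 and 853 FPKM in DMSO, 1440 and 794 at 2 h, and the 6 h and 12 h libraries had 1511 and 1593. At 12 h its log2 fold change of 0.49 splits into 0.08 on the first DMSO library and 0.90 on the recovered one, a gap as wide as that between the DMSO libraries themselves. RPS9, which lies near the entry of the mRNA channel, stood the farthest above the first DMSO library of all 82 members, at 1430 against 1008 FPKM (log2 fold change 0.50), and had 1222 FPKM in the recovered one.

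The stalk of the large subunit, which recruits elongation factors, is formed by RPLP0 with copies of RPLP1 and RPLP2. RPLP1 had 2475 and 1936 FPKM in DMSO, 2372 and 1776 at 2 h, and the 6 h and 12 h libraries had 2860 and 3067. RPLP2 had 2207 and 1434 FPKM in DMSO, 2099 and 1354 at 2 h, and the 6 h and 12 h libraries had 2410 and 2421. Both were above both DMSO libraries at 6 h and 12 h, with log2 fold changes of 0.39 and 0.44 at 6 h and of 0.49 and 0.44 at 12 h. RPLP0 moved less, from 1346 and 1447 FPKM in DMSO to 1460 at 6 h and 1601 at 12 h, with log2 fold changes of 0.07 and 0.20.

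RPS6, the substrate of the S6 kinases, had 1791 and 1749 FPKM in DMSO, 1742 and 1626 at 2 h, and the 6 h and 12 h libraries had 1922 and 2056. RPL11, the partner of RPL5 in the 5S particle, had 1837 and 1771 FPKM in DMSO and 2207 at 12 h (log2 fold change 0.29), and RPL5 reached 1054 FPKM, a change of 0.25. RPSA, also known as the laminin receptor, had 781 and 866 FPKM in DMSO and 972 at 12 h, a change of 0.24. All 4 were above both DMSO libraries at 12 h.

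The 5 lowest members at 12 h were the paralogs RPL7L1, RPL22L1 and RPL39L and the core genes RPL7A and RPL3. RPL7A had 1440 and 1365 FPKM in DMSO, 1363 and 1257 at 2 h, and the 6 h and 12 h libraries had 1394 and 1324, a log2 fold change of -0.08. RPL3, which lies next to the peptidyl transferase centre, had 1010 and 1208 FPKM in DMSO and 1090 at 12 h. The change came to -0.02 on the log2 scale, and it was 0.02 and 0.04 under median-ratio and upper-quartile scaling, so that its direction was not fixed. RPS16, the lowest of the small subunit, had 1797 FPKM at 12 h, a log2 fold change of 0.02, or of -0.05 with the complementary share. RPS26 had 315 FPKM at 12 h, between its DMSO libraries, after 378 FPKM at 6 h, and RPS29 had 2262 FPKM at 12 h after 2550 at 6 h, with 2413 and 1931 FPKM in DMSO.

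The 12 h library was also set against both 2 h libraries, which uses DMSO only through the scaling of the 6 h and 12 h values. The recovered 2 h library would be 0.05 higher (log2) with the complementary share. The 12 h library was above both 2 h libraries for 76 of 82 members (28.4% of all genes) and below both for 0 (36.8%). The median difference was 0.30 on the log2 scale, against -0.06 for all genes and 0.11 for the other abundant genes. The 6 exceptions, RPL3, RPL7A, RPL22L1, RPL39L, RPL7L1 and RPS26, lay between the 2 h libraries. At 6 h the count above both was 72 (29.5% of all genes), with 0 below both (28.8%), and the median difference 0.21, equal to the 0.21 of the other abundant genes. From 6 h to 12 h the members had a median difference of 0.09 and the other abundant genes of -0.05, and 69 of 82 members were higher at 12 h. RPS2 and RPL28 had the largest differences, 0.37 and 0.36, and RPL22L1, RPL39L and RPL7L1 the lowest, -0.68, -0.40 and -0.28. In 68 members the 12 h value was the highest of all 6 libraries, as in 18.3% of all genes, and in 0 members it was the lowest (24.5%). RPS2 had 3069 and 3105 FPKM in DMSO, 2906 and 2962 at 2 h, and the 6 h and 12 h libraries had 3196 and 4142, with little spread within either pair of libraries.

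**Figure D3:**
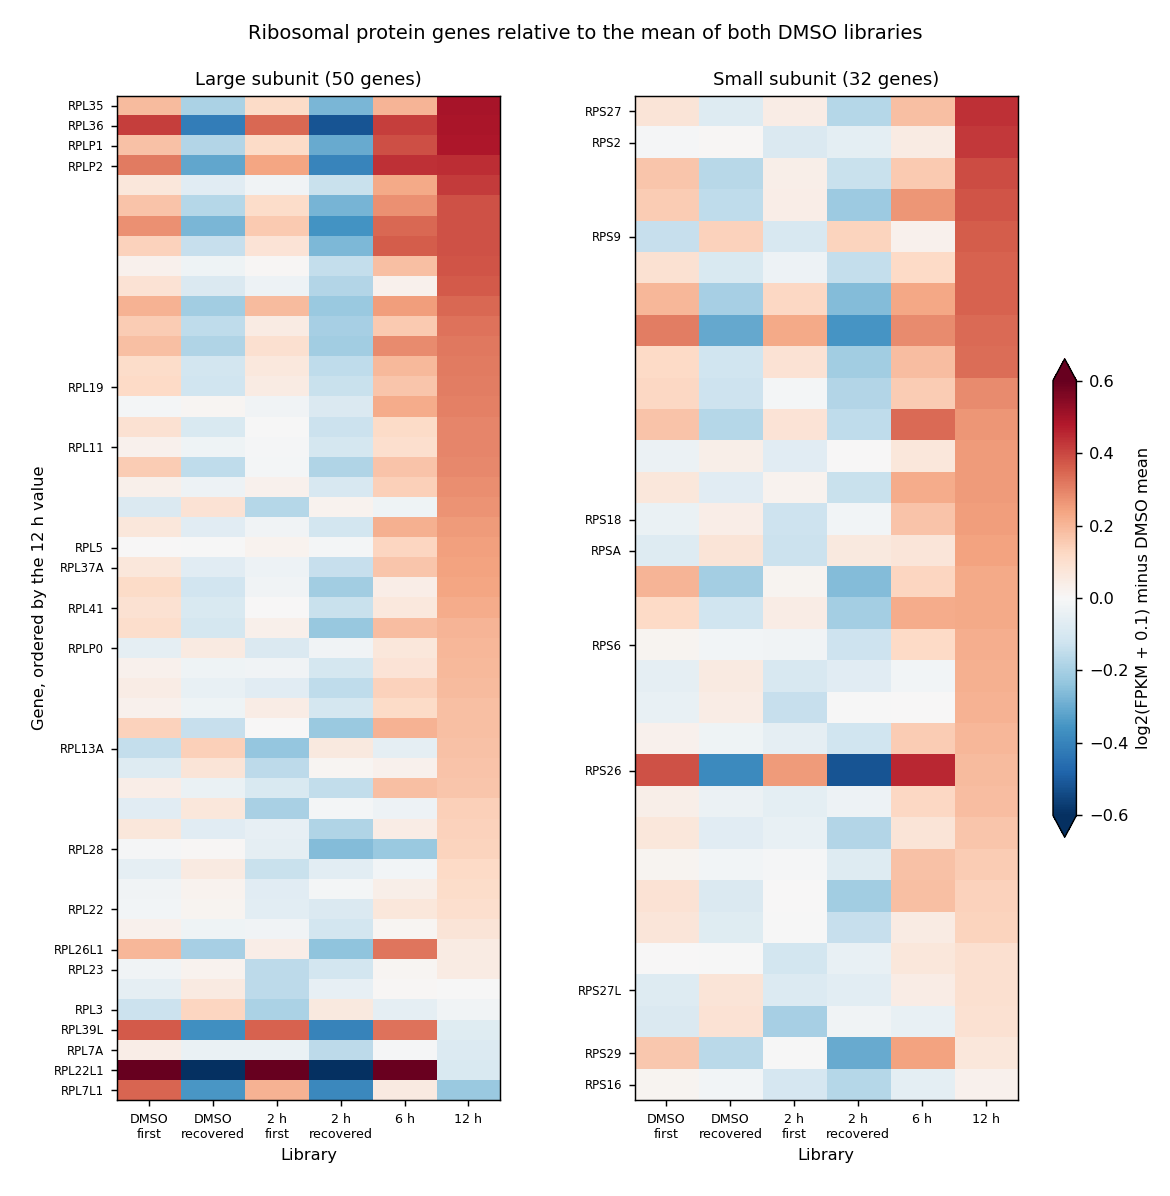
Each of the 82 ribosomal protein genes (rows, ordered by the 12 h value within each subunit, with names for genes described here) in each library (columns), as log2(FPKM + 0.1) minus the mean of both DMSO libraries; colours are cut at -0.6 and 0.6, which RPL22L1 passes. The 12 h column is red for nearly all genes (73 of 82 above both DMSO libraries), and the recovered 2 h column is blue for most.

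The large and small subunits were compared at each time. The medians of the RPL and RPS genes differed by less than 0.01 on the log2 scale at 2 h, 6 h and 12 h (differences of -0.0046, -0.00035 and 0.0038, RPL minus RPS). Leaving out the first DMSO library moved the difference at 12 h to 0.078, and leaving out the recovered one to -0.023. At 12 h, 43 of 50 RPL genes and 30 of 32 RPS genes were above both DMSO libraries, and at 2 h 8 and 6 were below both in both libraries. Without paralogs the counts at 12 h were 43 of 46 and 29 of 31. The summed FPKM of the RPL genes was 1.28 and 1.26 times that of the RPS genes in DMSO, 1.29 and 1.25 times at 2 h, and 1.27 times at both 6 h and 12 h. The ratio thus moved less with SpiD7 than between the libraries of 1 group. No difference between the subunits was tested.

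Single members differed between the DMSO libraries by -1.31 to 0.28 (log2), and core genes by -0.83 to 0.28. Between 12 h and a single DMSO library the members differed by -0.74 to 0.50 (first) and -0.15 to 0.90 (recovered). Against the DMSO mean, which evens out the 2 libraries, the range was -0.22 to 0.49. The recovered DMSO library had a median of -0.14 (log2) against the first over the 82 members (0.01 with the complementary share). A difference of more than 1.5-fold was found for 7 members, all lower (32.6% of all genes differed by as much in either direction). With the complementary share every difference would be 0.15 higher, and fewer members would pass 1.5-fold. RPL22L1 was at 193 and 78.2 FPKM in the first and recovered library, RPL36 at 1511 and 853, RPS26 at 359 and 211, RPL39L at 49.2 and 29.6 and RPL7L1 at 129 and 79.6. In the other direction, RPL13A was at 1260 and 1532 FPKM, RPS9 at 1008 and 1222 and RPL3 at 1010 and 1208. The 2 h libraries differed in the same way: RPL22L1 was at 200 and 71.8 FPKM and RPL13A at 1184 and 1448. Over the 77 core genes the differences in DMSO and at 2 h, recovered minus first, had a Pearson r of 0.965 and a Spearman rho of 0.949, where all 13287 genes gave 0.369 and 0.837. Genes are not independent replicates, both recovered libraries come from the same kind of subtraction, and the points share their libraries.

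**Figure D4:**
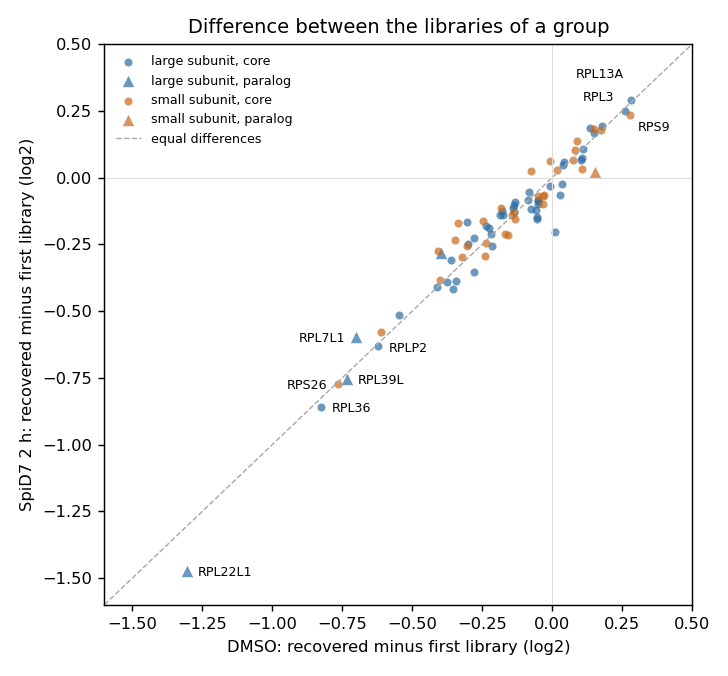
Difference between the recovered and the first library (log2) of each ribosomal protein gene in DMSO (horizontal axis) and at 2 h (vertical axis), with large subunit genes in blue, small subunit genes in orange and paralogs as triangles. Points follow the dashed line of equal differences, from RPL22L1 at -1.31 and -1.47 to RPL13A at 0.28 and 0.29.

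The coding length of the core genes (GENCODE 29, known for all 77) went with this difference, with a Pearson r of 0.435 against the log2 length, where 723 other abundant genes gave -0.063. The 39 genes of at most 456 coding bases had a median difference between the DMSO libraries of -0.18 and the 38 longer ones of -0.06. With the complementary share both medians would be 0.15 higher. At 12 h the medians of the shorter and longer genes were 0.23 and 0.25 against the DMSO mean, 0.13 and 0.19 when the first DMSO library is the base, and 0.31 and 0.23 when the recovered one is. The order of short and long genes at 12 h therefore turned with the DMSO library used, while both medians stayed above 0. The part of length in these differences was not tested.

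Among the paralogs, only RPL22L1 differed between the DMSO libraries by more than the core genes did (-1.31, against -0.83 to 0.28, log2). The same held between the 2 h libraries (-1.47, against -0.86 to 0.29). Medians of paralogs and core genes against the DMSO mean were close for 2 h (-0.07 and -0.08). They lay apart for 12 h (-0.07 and 0.24), though the ranges of single genes overlapped (-0.22 to 0.10 and -0.08 to 0.49). RPL22L1, a paralog of RPL22, had 193 and 78.2 FPKM in DMSO, 200 and 71.8 at 2 h, and the 6 h and 12 h libraries had 185 and 116. RPL22 itself, at 217 and 223 FPKM in DMSO, 210 and 207 at 2 h, and the 6 h and 12 h libraries had 230 and 236, varied little. The ratio of RPL22 to RPL22L1 was thus 1.12 and 2.85 in DMSO, 1.05 and 2.88 at 2 h, and the 6 h and 12 h libraries had 1.24 and 2.04, and the range within DMSO holds the values of the 6 h and 12 h libraries. The log2 fold change of RPL22L1 at 6 h, 0.59, comes from the recovered DMSO library, since the value lay below the first.

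RPL7L1, a nucleolar factor rather than a constituent of the mature ribosome, had 129 and 79.6 FPKM in DMSO, 117 and 77.5 at 2 h, and the 6 h and 12 h libraries had 105 and 87.0. RPL39L had 49.2 and 29.6 FPKM in DMSO, 48.8 and 28.9 at 2 h, and the 6 h and 12 h libraries had 47.9 and 36.3. In RPL22L1, RPL39L and RPL7L1 alike, 12 h lay below 6 h and between the DMSO libraries. RPL26L1 was at 103 and 78.2 FPKM in DMSO and 112 and 93.0 at 6 h and 12 h. RPS27L, a p53 target, was the exception among the paralogs, with 27.1 and 30.1 FPKM in DMSO and 30.6 at 12 h. It was the 1 paralog of 5 above both DMSO libraries at 12 h, where 72 of 77 core genes were.

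**Figure D5:**
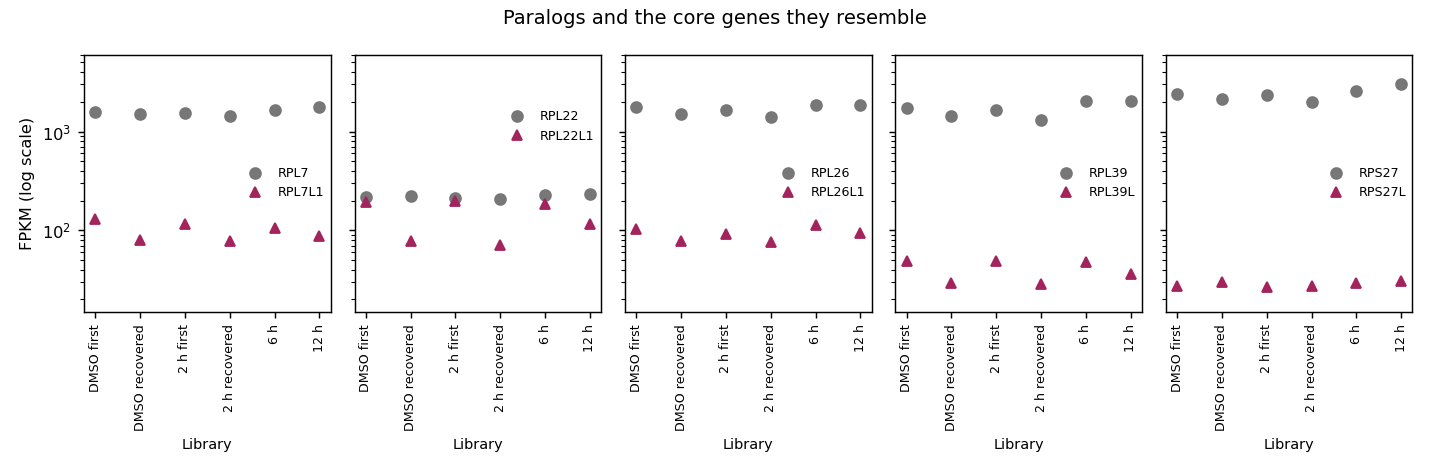
FPKM on a log axis in each library for 5 paralogs (triangles) and the core genes they resemble (circles). RPL22L1 moves between 71.8 and 200 FPKM while RPL22 stays between 207 and 236, and the other paralogs lie well below their core genes in every library.

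Other genes of the translation machinery were described with the same measures, from lists chosen with earlier results of these data known. Of 4 ribosomal proteins outside the naming rule, 3 were above both DMSO libraries at 12 h. Among them, FAU, which encodes RPS30, had 889 and 617 FPKM in DMSO and 991 at 12 h, and GNB2L1, the ribosome-bound scaffold RACK1, 1821 and 1815 FPKM in DMSO and 1929 at 12 h. RPL36AL, at 512 and 501 FPKM in DMSO and 489 at 12 h, was the 1 of 4 below both DMSO libraries.

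Mitochondrial ribosomal proteins, which serve the separate ribosome of the mitochondrion, had a median of -0.07 at 2 h and 0.03 at 12 h over 76 genes. The 12 h median was -0.19 with the first DMSO library as the base and 0.21 with the recovered one. The 12 h library was above both DMSO libraries for 18 of them (23.7%, against 30.1% of all genes) and below both for 12 (15.8%, against 35.6%). MRPL18 stood out, with 90.5 and 55.8 FPKM in DMSO, 129 and 118 at 2 h, and the 6 h and 12 h libraries had 238 and 295, and its groups at 2 h did not overlap (unadjusted p = 0.070 by limma, adjusted p = 1.0). MRPS18C was next at 12 h (log2 fold change 0.75), and MRPL14 and MRPS16 were lowest (-0.42 and -0.41). None of the 76 passed the test at 2 h.

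A list of 16 genes held elongation factors and also genes that are not, such as the RNA-binding HNRNPA1 and PABPC1. Of the 16, 10 were above both DMSO libraries at 12 h (62.5%, against 30.1% of all genes) and 1 below. Their median was 0.14, or 0.10 and 0.22 on the first and recovered DMSO library. EEF1A1, the most abundant, had 2298 and 2818 FPKM in DMSO and 2567 at 12 h, between them. EIF5AL1 and TPT1 were highest at 12 h (0.67 and 0.46) and HNRNPA1 and PABPC1 lowest (-0.52 and -0.15). Of 35 initiation factors, 12 were above (34.3%, against 30.1% of all genes) and 5 below both DMSO libraries at 12 h (14.3%, against 35.6%). Their median of 0.04 turned with the library, to -0.12 on the first DMSO library and 0.21 on the recovered one. They ran from EIF4G3, which had 21.2 and 20.3 FPKM in DMSO and 9.98 at 12 h, and EIF2B5 (-0.61) to EIF3J and EIF5 (0.61 and 0.65). The ribosomal protein genes thus had the larger share above both DMSO libraries at 12 h, and the difference between the lists was not tested.

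Ribosome biogenesis factors, which process ribosomal RNA and assemble the subunits, had a median of 0.21 at 12 h over 73 of 76 genes. This is near the value of the members, but the DMSO libraries differed by a median of -0.69 in these genes. On the first DMSO library the median was -0.21 and on the recovered one 0.56, and its direction thus turned with the library, where the members stayed above 0 with both. At 12 h 27 were above both DMSO libraries (37.0%, against 30.1% of all genes) and 3 below (4.11%, against 35.6%). NOP58, a core protein of the box C/D particles, had 114 and 80.2 FPKM in DMSO, 155 and 118 at 2 h, and the 6 h and 12 h libraries had 168 and 164. PPAN was highest at 12 h (1.06), and TAF1B and POLR1A, of the RNA polymerase I machinery, were lowest (-0.68 and -0.49).

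Among 26 regulators of ribosome production and of the stress response, 11 were above and 8 below both DMSO libraries at 12 h (42.3% and 30.8%, against 30.1% and 35.6% of all genes), with a median of -0.09, or -0.09 and 0.19 on the first and recovered DMSO library. SESN2, an inhibitor of mTORC1, had 1.89 and 2.94 FPKM in DMSO, 8.77 and 9.40 at 2 h, and the 6 h and 12 h libraries had 27.3 and 38.6. PPP1R15A, which directs dephosphorylation of eIF2α, had 35.7 and 139 FPKM in DMSO, 236 and 320 at 2 h, and the 6 h and 12 h libraries had 458 and 471. MTOR had 17.6 and 12.4 FPKM in DMSO and 8.91 at 12 h, and RPTOR 15.9 and 12.1 FPKM in DMSO and 10.3 at 6 h (log2 fold change -0.78 at 12 h). None of the 16, 35, 73 or 26 genes of these lists passed an adjusted p of 0.05 at 2 h, and SESN2 had an unadjusted p of 0.00404 (limma).

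The label of an ovarian cancer line was set against markers. Epithelial markers were high in all libraries (KRT8 at 1459 to 2194 FPKM, EPCAM at 77.4 to 86.5), while of the Mullerian markers PAX8 was at 1.64 to 2.12 FPKM and WT1 and MUC16 at most 0.141 and 0.686. Summed markers of fibroblasts stayed under 10 FPKM, and those of leukocytes lay at 3.12 to 9.37, with CD3E at 0, and of erythroid cells at 0 to 0.960. The sums of these 3 cell types were below 10 FPKM in every library, and in bulk samples fewer cells and less RNA per cell cannot be told apart.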

How the data were processed

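Single reads of 6 libraries were trimmed with Trim Galore and aligned with TopHat 2.0.8, and expression was estimated and compared with Cufflinks and Cuffdiff 2.1.1, by the methods and the submitters' processing notes. The notes list GRCm38 and hg38, the methods name the mouse build, and the loci are those of hg38. FPKM values of 4 pairwise comparisons were deposited, each scaled on its own by the authors, beside fold changes and p-values, which were not used. The 6 h and 12 h libraries were divided by 0.972 and 0.994, the median ratio of the first DMSO library's values in those comparisons to its values in the first. In the columns named for the second DMSO and 2 h samples, none of 18195 and 18722 rows above 0 in the first library was at 0, and 809 and 957 rows lay at a floor of 0.526 and 0.509 of that library. They were read as group means, and the second library as (mean minus that share of the first library) divided by the share, which assumes that both libraries have the same share. The complementary share was tried as an alternative chosen after the data were seen. Remainders under 0.2% of the mean were set to 0. All value columns were mapped (0 left over).

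The 13287 genes whose FPKM averaged 1 or more were tested with limma 3.58.1 in R 4.3.3 (lmFit, eBayes), on log2(FPKM + 0.1), which understates changes of low genes. Tables used Python 3.11.15, pandas 2.3.3 and numpy 2.4.6, and the test was tried on simulated data first. Members and lists were chosen with earlier results of these data known. Genes named are the 5 highest and lowest members by change at each time and by level, the 3 largest differences between DMSO libraries in each direction, paralogs, stalk proteins, RPSA, RPS6, RPL5 and RPL11, hosts of small RNAs and the 2 ends of each other list at 12 h. RPL22, RPS9 against the first DMSO library, pseudogenes, EEF1A1, EPCAM to CD3E, members of counts and the genes with the largest differences from 6 h to 12 h were added after their values were seen. The comparisons of both 2 h libraries with the 6 h and 12 h libraries were also added after the data were seen. Values of some single genes are not reported here.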

Additional observations from a re-analysis of the deposited data

Results flagged for a closer look

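The median log2 fold change of the ribosomal protein genes was below 0 at 2 h, for each 2 h library against the DMSO library of its number, and above 0 at 12 h against either DMSO library, and the difference between the medians (12 h minus 2 h) was 0.30. Both medians use the same DMSO libraries. The difference was not tested, because there was 1 library at 12 h. Across numbers, the median level of the core genes was higher in the first 2 h library (1311 FPKM) than in the recovered DMSO library (1292 FPKM). That order rests on the share assumed for the recovered library.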

How the results depend on the processing

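Alternatives were other pseudocounts (0.01 and 1), filters, scalings and row treatments, an intensity trend in limma, and each library left out in turn. Each fit called 0 members at 2 h, which says nothing about stability, since every member's adjusted p was 1.0 in the fit as reported. With 1 library left in a group, that library is assumed to vary like the other group. The medians at 2 h, 6 h and 12 h kept their direction wherever an alternative gives them (the intensity trend gives calls alone). With the complementary share of the recovered libraries, chosen after seeing the data, 35 members lay below both DMSO libraries at 2 h, 7 at 6 h and 2 at 12 h. Median-ratio scaling gave 33 members below both DMSO libraries at 2 h and 4 at 6 h, and upper-quartile scaling 22 and 4. The direction of the difference between subunits did not hold: the RPL minus RPS median was -0.014 at 12 h with no filter, 0.0043 and 0.0074 at 6 h and 12 h with the authors' group means, and -0.019 and 0.019 without the paralogs, the last chosen after seeing the data. With members of their own values alone, chosen likewise, 1 lay below both DMSO libraries at 6 h. The share of the FPKM total in DMSO, 11.9% as the mean of both libraries, was 14.8% without small RNAs. Leaving out a library gave 29 to 64 members lower at 2 h and 0 to 3 higher, 15 to 16 lower at 6 h and 3 to 7 lower at 12 h, against the 1 library left in a group, and differences between subunits of -0.012 to 0.0090 at 2 h, -0.0039 to 0.023 at 6 h and -0.023 to 0.078 at 12 h.

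Replicate numbers come from the sample titles alone, which do not say that a number marks a shared batch. The deviations of same-numbered libraries had a correlation of 0.369 over all genes and 0.972 over the members. With the replicate number as a block, limma called 0 members and 0 of all genes (0.00%), with adjusted p of 0.399 to 0.963 for the members. By number, the median of 2 h minus DMSO over the members was -0.08 in each pair. Depth is unknown, no counting error can be given, and an entry of 0 is not proof of absence.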
